A study of Mus musculus with 69 samples.

Results

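Gene expression was measured by RNA-seq in CD8+ effector memory T cells (Tem) cultured with interleukin 15 (IL-15). The cells came from wild-type (WT) mice and from mice that had lost all but 1 STAT5 allele. The members were the 6 libraries of Tem cultured with IL-15, of 69 samples in the series, taken by their labels alone and with no measured value used. They came in pairs, 2 libraries each of WT, AAB and BBA. WT mice (Stat5a+/+ Stat5b+/+) carried all 4 alleles. AAB mice (Stat5a-/- Stat5b+/-) retained 1 allele of Stat5b, and BBA mice (Stat5a+/- Stat5b-/-) retained 1 allele of Stat5a. The knockouts were germline, so every cell of the animal had lost the alleles and not only the T cells that were sequenced. All mice were of the C57BL/6 strain and 8 to 16 weeks old. CD3+ CD8α+ CD44high cells of the effector memory gate were sorted from pooled lymph nodes and spleen, and 20000 to 100000 of them were cultured for 12 to 16 h with IL-15 at 10 ng/ml. The labels do not tie a library to an animal, so the p-values measure the spread between these samples. Comparisons were made of BBA with WT, of AAB with WT and of BBA with AAB.

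STAT5A and STAT5B are closely related transcription factors encoded by neighbouring genes. IL-15 reaches T cells through IL-2Rβ and the common gamma chain, JAK1 and JAK3 then phosphorylate STAT5, and the dimer binds a palindromic motif near its target genes. In CD8+ T cells this pathway is known for inducing feedback inhibitors of the SOCS family, survival factors such as BCL-2, the growth regulator MYC and cytotoxic genes. Tem are antigen-experienced cells that patrol tissues and hold cytotoxic proteins ready for use.

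Depth was 5926139 to 12740227 counts on genes per library, and 10183 of the 24309 genes in the table passed the filter on low counts. Levels are given as CPM, the counts of a gene scaled by the TMM-normalized total of its library. The CD8 and T cell markers were present in every library, with Cd8a at 1028 to 1764 CPM. Cd44, a gene of the sort, followed its gate. On the scale of all 48 CD8+ libraries, Cd44 stood at 149 and 127 CPM in WT Tem against 83.6 and 76.6 in central memory cells (Tcm) with IL-15. Ccl5, a chemokine of effector memory cells, was at 652 and 477 CPM against 70.9 and 54 in Tcm. Klrg1, a marker of terminal effector cells, was low at 6.16 and 7.65 CPM.

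Replicate 2 of each genotype stood apart from replicate 1. Counts on 1499 olfactory, vomeronasal and taste receptor genes, which T cells do not use, summed to 246, 409 and 625 CPM of the raw total in replicate 1 of WT, AAB and BBA, and to 2269, 1599.9 and 3099.8 CPM in replicate 2. The other 42 CD8+ libraries ranged from 207 to 2972 with a median of 417. B cell markers moved the same way, with a summed level of 45.9, 56.5 and 79.1 CPM in replicate 1 and 137, 207 and 214 CPM in replicate 2. Myeloid markers summed to 27.2 and 77.4 CPM in WT, 48.2 and 150.4 in AAB and 175 and 70.0 in BBA, and Lyz2 alone was 95.1 CPM in BBA replicate 1. Cd4 stayed at 3.79 to 7.41 CPM and the 4 haemoglobin genes of the erythroid list were at 0 in every library. The CD4 and regulatory T cell list summed to 106 and 107 CPM in WT, 109 and 116 in AAB and 173 and 128 in BBA, and the NK list to 415 to 607 CPM, most of it Eomes and Il18r1, which T cells also express. Of its other members Klra8 and Klra4 were at 0 in every library, Ncr1 was at 0.884 and 1.61 CPM in WT, 0.211 and 1.52 CPM in AAB and 0.893 and 2.22 CPM in BBA, Klrb1c at 0.972 and 2.01 CPM in WT, 0.844 and 1.52 CPM in AAB and 2.50 and 3.39 CPM in BBA and Tyrobp at 1.68 and 2.50 CPM in WT, 2.43 and 5.91 CPM in AAB and 6.70 and 3.04 CPM in BBA. Fcer1g was at 1.15 and 1.93 CPM in WT, 0.633 and 2.36 CPM in AAB and 4.11 and 1.17 CPM in BBA, and Itga2 stayed under 10 CPM. Libraries with the same replicate number deviated from their genotype mean together, so each comparison was also fitted with the replicate number as a block, and a block value is printed where it changes a call. An effect printed with a p of both fits, the one without the block first, is that of the fit without the block, and an effect printed with the p of the block first is that of the fit with it.

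**Figure D1:**
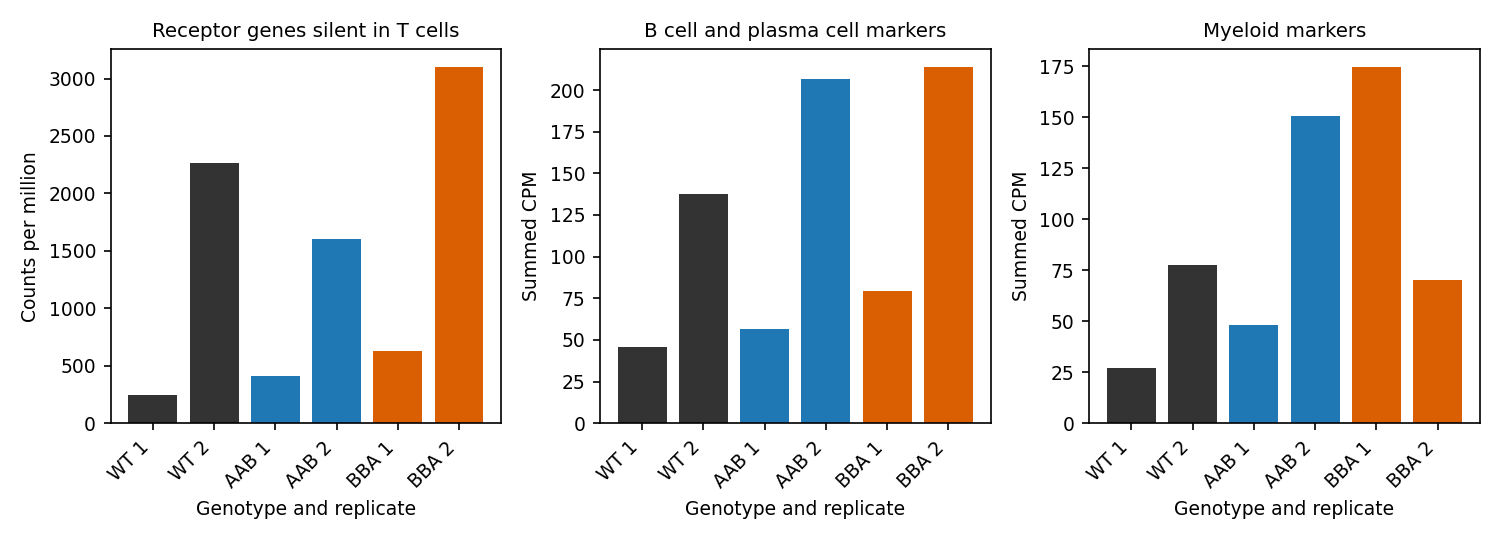
CPM of the raw total on receptor genes that T cells do not use (left), summed CPM of B cell and plasma cell markers (middle) and of myeloid markers (right) in each of the 6 Tem libraries with IL-15, 1 bar per library. Replicate 2 is higher than replicate 1 in each genotype in the left and middle panels, and BBA replicate 1 has the tallest myeloid bar at 175 CPM.

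Stat5a followed the genotypes, whereas reads on Stat5b persisted in BBA. Stat5a (GRCm38 chr11:100859351-100885169, plus strand) was at 77.2 and 76.6 CPM in WT, 5.38 and 4.39 CPM in AAB and 44.8 and 45.6 CPM in BBA. Stat5a fell in AAB, with a log2 fold change of -3.96 ± 0.15 (SE; edgeR adjusted p = 0.0025). BBA, which keeps 1 Stat5a allele, held 58.8% of the WT mean (-0.77 ± 0.13, adjusted p = 0.0508, and 0.00406 with the block). Stat5b (GRCm38 chr11:100780731-100850724, minus strand) was at 240.2 and 254 CPM in WT, 105 and 115 CPM in AAB and 91.3 and 96.1 CPM in BBA. BBA cells have no intact Stat5b allele, and their Stat5b reads were at a level not separated from that of AAB cells (BBA over AAB -0.23 ± 0.10, adjusted p = 0.704). Stat5b fell in BBA against WT (-1.40 ± 0.11, adjusted p = 0.0168) and, with the block, in AAB (-1.17 ± 0.10, adjusted p = 0.126 without and 0.00234 with it). The 2 genes are paralogs, and reads that match both could be split between them by the counting. In AAB, Stat5a held 5.38 and 4.39 CPM beside 105 and 115 CPM of Stat5b. In BBA, Stat5b held 91.3 and 96.1 CPM beside 44.8 and 45.6 CPM of Stat5a. The source of the Stat5b reads in BBA was not tested.

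Per kb of exon the share of transcript from the gene that is still intact differed between the deficient genotypes. The sum of Stat5a and Stat5b was 54.2 and 56.5 CPM per kb in WT, and most of it was Stat5b at 43.4 and 45.8 CPM per kb. In AAB, Stat5b stood at 18.9 and 20.8 CPM per kb, 34.2% and 37.7% of the mean WT sum. In BBA, Stat5a stood at 6.28 and 6.39 CPM per kb, 11.4% and 11.5% of that sum. Transcript of the intact gene was lower in both BBA libraries than in both AAB libraries. Among the other members of the STAT family list, 7 genes tested in all, no DEG was found in BBA, and the median of the list was -0.03.

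More genes passed the test in BBA than in AAB, and more of the genes that passed in BBA were lower than higher. A gene was called a differentially expressed gene (DEG) where it changed over 1.5-fold and its adjusted p stayed below 0.05. In BBA against WT 179 genes passed, 1.76% of those tested, with 120 lower (1.18%) and 59 higher (0.579%), and 1848 had a p under 0.05 before adjustment. In AAB against WT 2 genes passed, 0.0196%, and both were lower, while none was higher (0%) and 741 stood under 0.05 before adjustment. Between BBA and AAB a single gene passed, Stat5a (0.00982%, with none lower, 0%), and 732 did so before adjustment. DESeq2 called 805, 199 and 168 genes in the same 3 comparisons. All 120 and 59 DEG of BBA were also called by DESeq2 and with the block. Fewer of them were kept with other filters, 104 and 46 with no filter on low counts and 16 and 5 with filterByExpr. With TMM factors taken before the filter, 32 and 17 were kept.

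The counts rested on how the replicates were treated. With the replicate number as a block, BBA against WT gave 499 lower genes (4.90%) and 956 higher genes (9.39%), 14.3% of all tested. AAB against WT then gave 66 lower (0.648%) and 63 higher (0.619%), 1.27% together. BBA against AAB gave 107 lower (1.05%) and 119 higher (1.17%), 2.22% together. The 956 genes called higher had a median level of 18.3 CPM, below the 43.6 CPM of all genes tested, while the 120 genes lower without the block had a median of 80.4 CPM. Of 9 silent receptor genes that passed the filter, 3 were called with the block in BBA against WT. Genes of B cells and myeloid cells were among the higher calls too, such as the B cell receptor chain Cd79a at 11.7 and 41.6 CPM in WT, 13.6 and 69 CPM in AAB and 20 and 74.9 CPM in BBA and the dendritic cell gene Siglech at 1.77 and 7.17 CPM in WT, 4.11 and 8.61 CPM in AAB and 6.96 and 17.5 CPM in BBA, with Cd22, Cd74, Ciita, Spib, Pou2af1, Csf3r and the class II genes H2-Aa, H2-Ab1 and H2-Eb1, all named after their values were seen. The part of these backgrounds in the calls was not tested. Leaving out a single library took the 179 DEG of BBA to 35 without BBA replicate 2 and to 0 without any of the other 5 libraries, with 1 library then standing alone in its genotype. Each of the 120 and 59 genes kept its direction in all of those fits, which reused libraries in which the genes had been picked. The 2 DEG of AAB became 7 without BBA replicate 2 and 1 without any other library, and the DEG between BBA and AAB was lost without any 1 of the 6.

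The feedback inhibitors Cish, Socs1 and Socs3 fell in BBA, and most of their list did not. Of 14 tested genes of the SOCS, CIS and phosphatase list, 3 fell and none rose, against 1.18% and 0.579% of all genes. In the list 5 lay below 0, and its median log2 fold change was 0.09, on the other side of 0 from the 3 DEG. The median over all genes tested was 0.02 (0.03 in AAB against WT). Cish, which encodes CIS, an inhibitor that docks on STAT5-binding receptors, was at 80.2 and 61.6 CPM in WT, 36.9 and 37.1 CPM in AAB and 12.8 and 11.3 CPM in BBA. The libraries of the 3 genotypes did not overlap, and BBA fell by 2.55 on the log2 scale (SE 0.17, adjusted p = 0.0168). AAB lay between them, -0.94 ± 0.16 from WT (adjusted p = 0.284, 0.02 with the block), and BBA lay -1.62 ± 0.17 from AAB (adjusted p = 0.157, 0.00341 with the block). Socs3, which blocks JAK kinases at the receptor, was at 212 and 207 CPM in WT, 179.7 and 160.0 CPM in AAB and 85.2 and 99.5 CPM in BBA, and fell in BBA (-1.18 ± 0.12, adjusted p = 0.0225). In AAB its difference from WT was -0.30 ± 0.12 (adjusted p = 0.681), and BBA lay -0.88 ± 0.12 from AAB (adjusted p = 0.291, 0.0133 with the block). Socs1, a JAK inhibitor, fell in BBA as well (-1.55 ± 0.22, adjusted p = 0.042), from 188 and 152 CPM in WT to 47.1 and 69.5 CPM, with AAB at 119 and 99.9 CPM. Socs2 was lowest in AAB, at 18.6 and 18 CPM in WT, 1.79 and 4.22 CPM in AAB and 3.39 and 11.7 CPM in BBA, and passed only with the block, in AAB (-2.77 ± 0.49, adjusted p = 0.0355, 0.51 without the block) and in BBA (-1.51 ± 0.44, adjusted p = 0.0414, 0.399 without the block). The direct difference of BBA and AAB did not pass for Socs2 (1.34 ± 0.74, adjusted p = 0.734, 0.194 with the block).

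The STAT5 palindrome TTCNNNGAA stands at Cish and Socs3, and 2 stretches of RefSeq sequence show it. At Cish, 20 bases at the annotated RefSeq start (GRCm38.p6, chr9:107296659-107296678, plus strand, bases 1 to 20 of the transcript) hold 2 copies. At Socs3, 165 bases upstream of the start (GRCm38.p6, chr11:117969452-117969616, minus strand, bases -250 to -86 from the start, in no annotated exon) hold 1 copy, at bases -154 to -146. Capitals mark the motif, read 5′ to 3′ on the strand of the gene.
Cish: TTCCTGGAAagTTCTTGGAA
Socs3: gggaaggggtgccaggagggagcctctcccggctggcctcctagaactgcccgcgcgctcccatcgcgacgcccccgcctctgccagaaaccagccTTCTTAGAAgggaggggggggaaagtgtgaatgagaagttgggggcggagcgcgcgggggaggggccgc

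MYC and the PIM kinases, which promote growth and survival downstream of cytokine receptors, split by genotype. Myc (GRCm38 chr15:61985391-61990374, plus strand), a transcription factor for biosynthetic genes, was at 232 and 224 CPM in WT, 79 and 80.2 CPM in AAB and 29 and 42.5 CPM in BBA. Every AAB library was below WT and every BBA library below AAB. BBA fell by 2.68 on the log2 scale (SE 0.19, adjusted p = 0.0168), to 15.7% of the WT mean. AAB was -1.52 ± 0.18 from WT (adjusted p = 0.197, 0.00445 with the block), and BBA was -1.16 ± 0.19 from AAB (adjusted p = 0.304, 0.0133 with the block). Pim1 showed no such step between the deficient genotypes, at 333 and 332 CPM in WT, 174 and 186 CPM in AAB and 191 and 179 CPM in BBA. Pim1 fell in BBA (-0.85 ± 0.10, adjusted p = 0.0305), was -0.89 ± 0.10 in AAB (adjusted p = 0.197, 0.00764 with the block), and the direct difference was 0.04 ± 0.10 (adjusted p = 0.906). Pim2 was at 318 and 321 CPM in WT, 325 and 322 CPM in AAB and 201 and 179 CPM in BBA, with AAB at the WT level (0.02 ± 0.11). Pim2 fell in BBA (-0.75 ± 0.11, adjusted p = 0.042) and differed from AAB with the block (-0.77 ± 0.11, adjusted p = 0.291 without and 0.0133 with it). Mxd4, an antagonist of MYC, rose in BBA (0.73 ± 0.11, adjusted p = 0.042), from 78.4 and 69.4 to 124 and 122 CPM. These 3 lower and 1 higher DEG were all that passed of 12 genes of the PIM and MYC list, whose median was -0.12. Of all genes 1.18% were lower and 0.579% higher.

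Bcl2 (GRCm38 chr1:106538178-106714274, minus strand), the survival factor of memory T cells, was at 957 and 777 CPM in WT, 496 and 417 CPM in AAB and 204 and 208 CPM in BBA. No library overlapped between genotypes, and BBA held 23.7% of the WT mean (-2.07 ± 0.16, adjusted p = 0.0168). The AAB difference was -0.93 ± 0.15 (adjusted p = 0.268, 0.0095 with the block) and BBA differed from AAB by -1.15 ± 0.15 (adjusted p = 0.266, 0.00489 with the block). Among the other 11 tested genes of the BCL-2 family none was a DEG, and Bcl2l1, which encodes BCL-XL, passed with the block in BBA (-0.96 ± 0.16, adjusted p = 0.0533 without and 0.00321 with it). The median of the family was -0.21 in BBA and -0.04 in AAB.

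Cdk6 was the only gene other than Stat5a to pass in AAB without the block. This kinase, which drives entry into the cell cycle with the D cyclins, was at 77.2 and 69.4 CPM in WT, 15 and 15.9 CPM in AAB and 13.8 and 11.3 CPM in BBA. It fell by 2.25 in AAB (SE 0.16, adjusted p = 0.0466) and by 2.54 in BBA (SE 0.16, adjusted p = 0.0168), both on the log2 scale. The direct difference of BBA and AAB was -0.29 ± 0.16 (adjusted p = 0.733, 0.365 with the block). Ccnd2, the cyclin D2 partner of CDK6, was at 712 and 582 CPM in WT, 578 and 468 CPM in AAB and 282 and 253 CPM in BBA. It fell in BBA (-1.28 ± 0.17, adjusted p = 0.0351) and was -0.31 ± 0.16 in AAB (adjusted p = 0.825). BBA was -0.97 ± 0.16 from AAB (adjusted p = 0.312, 0.00536 with the block). In BBA, Cdk6 and Ccnd2 were the 2 DEG of 15 tested genes for D cyclins, G1 kinases and CDK inhibitors, against 1.18% lower among all genes.

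**Figure D2:**
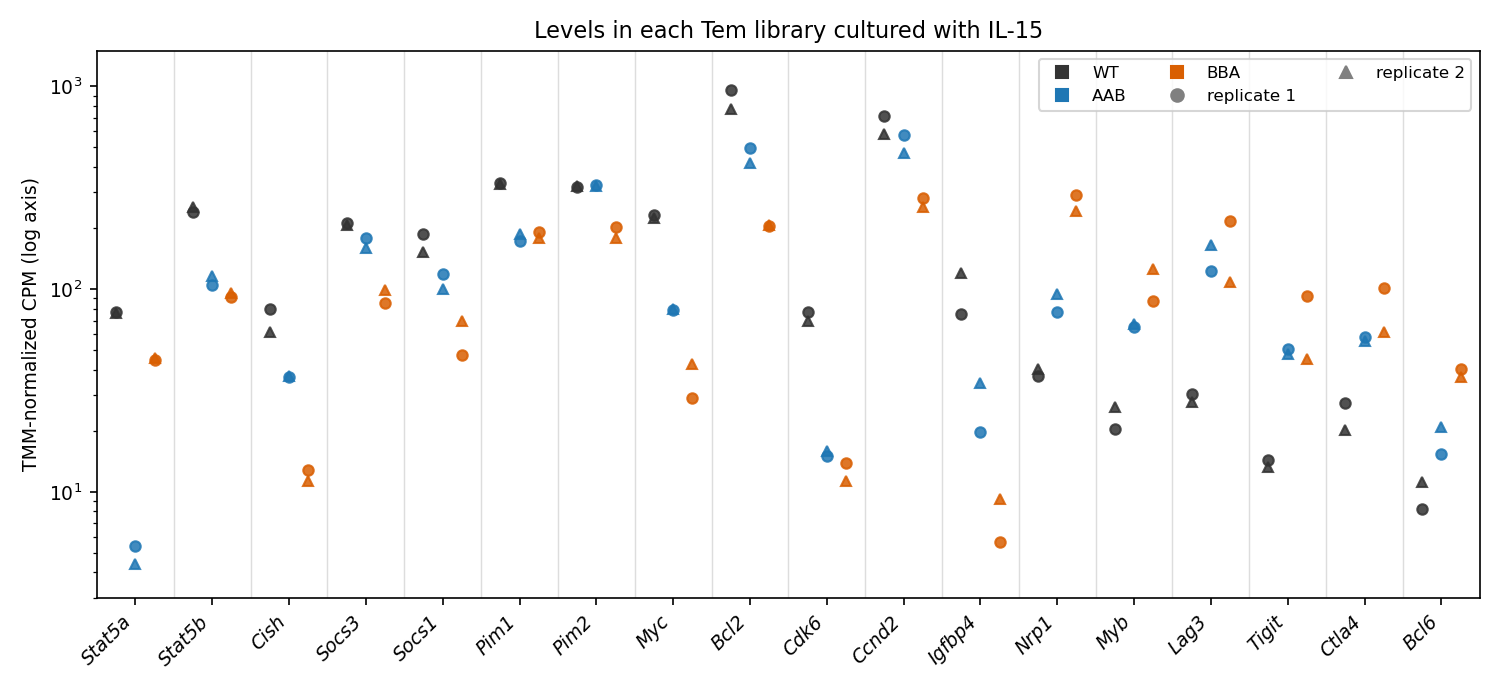
TMM-normalized CPM (log axis) of 18 named genes in each Tem library with IL-15, 1 point per library, coloured by genotype and shaped by replicate. BBA lies below WT from Cish to Igfbp4 and above WT from Nrp1 to Bcl6, and AAB lies between them for Myc, Bcl2 and Cish, with BBA for Pim1 and Cdk6 and with WT for Pim2.

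Genes for building ribosomes gave more lower DEG in BBA than any other of the 33 pathway lists. Of 54 tested ribosome biogenesis genes 17 were lower DEG and none was higher (31.5% of the list, against 1.18% of all genes). With the block 37 were lower, against 4.90% of all genes. All 54 had a log2 fold change below 0 in BBA, with a median of -0.84. In AAB the median was -0.42 with 54 of 54 below 0, no DEG without the block and 5 lower with it, against 0.648% of all genes. BBA over AAB had a median of -0.39, with 10 lower genes with the block, against 1.05% of all genes. The median of the list against the WT mean in each library was 0.09 and -0.10 in WT, -0.34 and -0.52 in AAB and -0.81 and -0.87 in BBA on the log2 scale, so no AAB library reached a WT library and no BBA library reached an AAB library. Mybbp1a, a nucleolar protein that binds MYB, was at 308 and 268 CPM in WT, 166 and 176 CPM in AAB and 122 and 103 CPM in BBA and fell in BBA (-1.36 ± 0.14, adjusted p = 0.0225). Heatr1, needed for transcription of ribosomal RNA, was at 157 and 143 CPM in WT, 104 and 92 CPM in AAB and 69.8 and 60.8 CPM in BBA and fell in BBA (-1.20 ± 0.12, adjusted p = 0.0225). Both passed in AAB with the block, at -0.75 ± 0.11 (adjusted p = 0.0201, 0.284 without the block) and -0.62 ± 0.09 (adjusted p = 0.0202, 0.31 without the block). Polr1a, the largest subunit of RNA polymerase I, fell from 112 and 107 CPM in WT to 53.7 and 59.8 CPM in BBA (-0.95 ± 0.10, adjusted p = 0.023), with AAB at 75.3 and 73.1 CPM. Bysl, Ppan and Rrs1, which assemble the ribosomal subunits, fell by 1.08 to 1.19 on the log2 scale in BBA.

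Enzymes for nucleotides and one-carbon units gave the next highest count. Of 28 tested genes 7 were lower in BBA and none higher (against 1.18% and 0.579% of all genes), 12 were lower with the block (against 4.90%), and the median was -0.56 in BBA and -0.27 in AAB. By library the list stood at 0.06 and -0.06 in WT, -0.18 and -0.44 in AAB and -0.60 and -0.55 in BBA. Mthfd1, which interconverts folate one-carbon units, was at 71.9 and 61.8 CPM in WT, 40.9 and 40.2 CPM in AAB and 23.7 and 22 CPM in BBA. It fell the most of the 6 members named by the rule (-1.55 ± 0.13, adjusted p = 0.0175), passed with the block in AAB (-0.72 ± 0.12, adjusted p = 0.0331, 0.284 without the block) and differed with the block between BBA and AAB (-0.83 ± 0.13, adjusted p = 0.0228, 0.304 without the block). Cad, which starts pyrimidine synthesis, was at 199 and 182 CPM in WT, 100 and 121 CPM in AAB and 86.9 and 90.1 CPM in BBA and fell in BBA (-1.11 ± 0.13, adjusted p = 0.0277). Gart and Atic of purine synthesis, Impdh2 of guanine nucleotide synthesis and Shmt2, the mitochondrial serine hydroxymethyltransferase, fell by 0.92 to 1.09 on the log2 scale.

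Smaller shares of the translation and nutrient lists changed. Over all genes tested, 1.18% were lower in BBA without the block and 4.90% with it. Of 45 translation factors 2 fell in BBA, Eif5a and Eif3b, with a median of -0.35 and 7 lower with the block. Eif5a, the hypusine-bearing elongation factor, went from 637 and 504 CPM in WT and 393 and 338 in AAB to 237 and 238 in BBA (-1.26 ± 0.15, adjusted p = 0.0312). Of 20 aminoacyl-tRNA synthetases 1 fell, Vars (-0.65 ± 0.10, adjusted p = 0.0496), while all 20 lay below 0 with a median of -0.40. Of 32 chaperonins, importins and exportins 3 fell, the importins Ipo4 and Ipo5 and the mitochondrial chaperone Hspa9. Ipo4 was at 75.8 and 68.8 CPM in WT, 38.3 and 41.7 CPM in AAB and 26.1 and 28.8 CPM in BBA (-1.40 ± 0.13 in BBA, adjusted p = 0.0175). With the block 10 genes of that list were lower in BBA, among them Hspd1, the mitochondrial chaperonin HSP60, at 205 and 150.4 CPM in WT, 141 and 114 CPM in AAB and 90 and 73.9 CPM in BBA (-1.11 ± 0.20, adjusted p = 0.0599 without and 0.000449 with it). Of 11 amino acid transporters 2 fell. Slc7a5, which carries large neutral amino acids, was at 91.2 and 73.7 CPM in WT, 32.9 and 44.2 CPM in AAB and 27.2 and 31.4 CPM in BBA (-1.49 ± 0.20 in BBA, adjusted p = 0.0359, and -1.11 ± 0.17 in AAB, adjusted p = 0.0212 with the block and 0.284 without). Slc38a2, a carrier of small neutral amino acids, was -0.77 ± 0.10 in BBA (adjusted p = 0.0382). None of 19 genes for glycolysis and glucose transport and none of 22 genes for folliculin, sestrins and mTORC1 regulators was a DEG, with medians of -0.19 and -0.01. Among them Eno1, the glycolytic enzyme enolase, was at 42.3 and 39.1 CPM in WT, 29.8 and 33.2 CPM in AAB and 23 and 22.9 CPM in BBA and passed with the block as lower in BBA (-0.82 ± 0.13, adjusted p = 0.0506 without and 0.00614 with it). Eno1b, a separate enolase entry outside the list, was a lower DEG in BBA without the block, with a log2 fold change of -1.31. Reads of Eno1 and Eno1b may be split between them by the counting. Ddit4, an inhibitor of mTORC1, was higher with the block in AAB, at 47.1 and 35.9 CPM in WT, 74.9 and 74.8 CPM in AAB and 59.4 and 62.1 CPM in BBA (0.86 ± 0.13, adjusted p = 0.0224, 0.284 without the block).

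**Figure D3:**
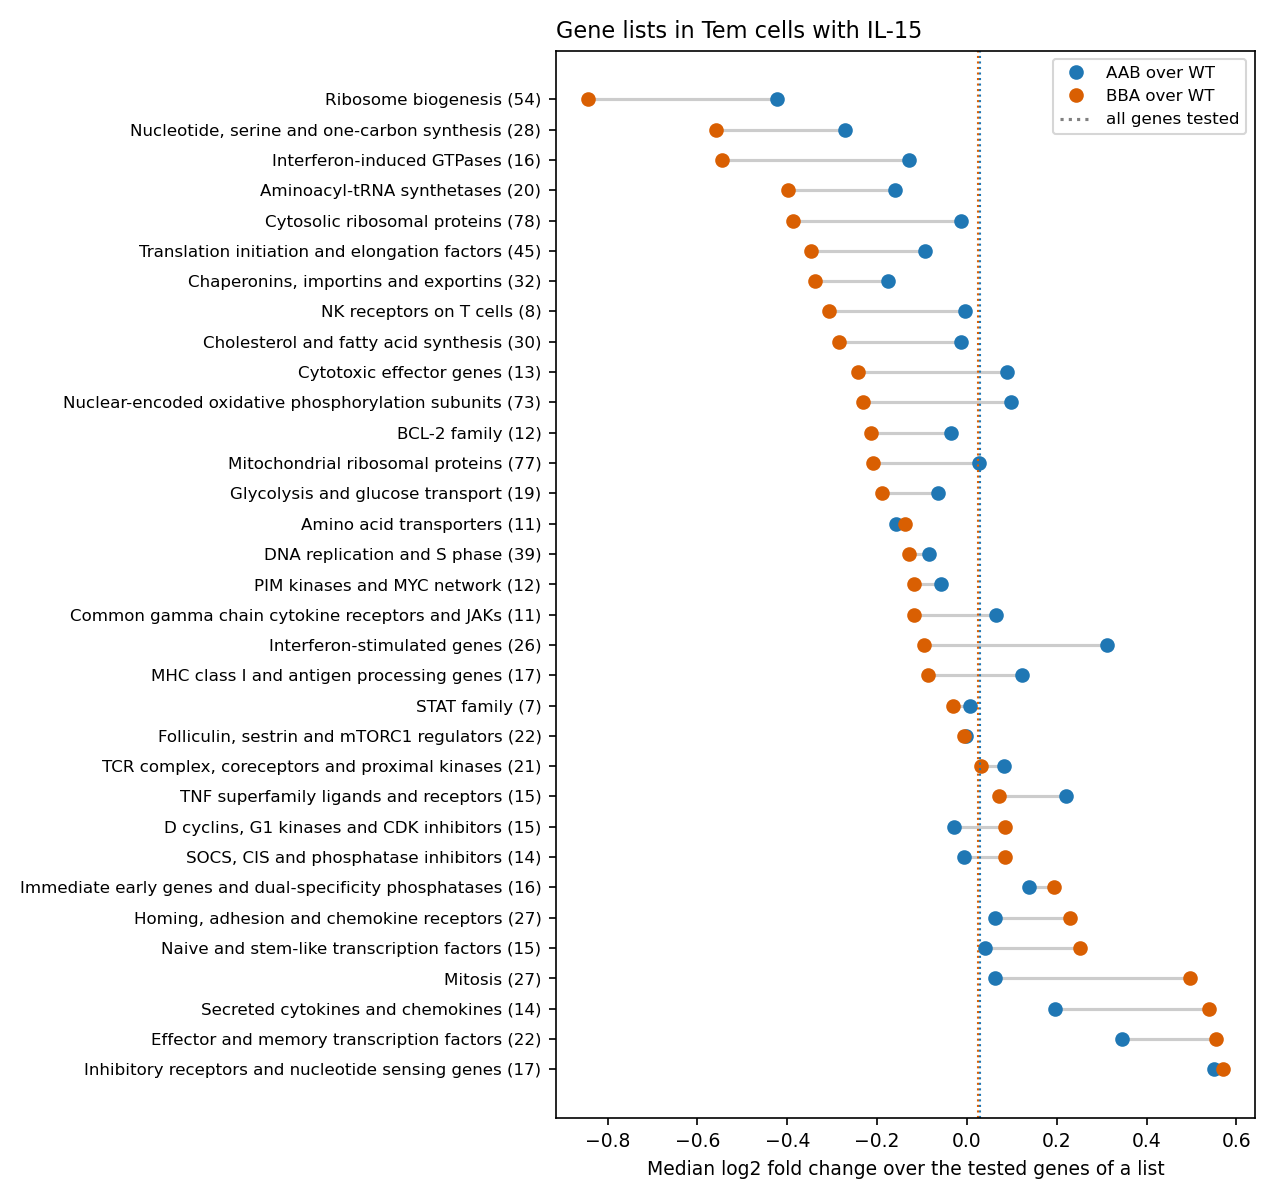
Median log2 fold change over the tested genes of each pathway list (number of genes in brackets), AAB over WT in blue and BBA over WT in orange, with the medians of all genes tested as dotted lines. Ribosome biogenesis has the lowest median, -0.84 in BBA and -0.42 in AAB, and the inhibitory receptor list the highest, 0.57 and 0.55.

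Several lists had a median below 0 in BBA and near 0 in AAB, with a spread between replicates. The median of 78 cytosolic ribosomal protein genes was -0.39 in BBA, with 78 of 78 below 0, and -0.01 in AAB. In each library the median was 0.17 and -0.19 in WT, 0.25 and -0.34 in AAB and -0.32 and -0.47 in BBA, so replicate 1 was above replicate 2 in each genotype, and AAB replicate 2 lay within the range of BBA. Rps2 was the DEG of this list (-0.90 ± 0.14, adjusted p = 0.0447), at 1916 and 1619 CPM in WT, 1386 and 1192 CPM in AAB and 912 and 980.1 CPM in BBA. For 73 nuclear-encoded subunits of oxidative phosphorylation the median was -0.23 in BBA and 0.10 in AAB, with no DEG and 2 lower genes with the block in BBA (Atp5g1 and Ndufb7, a smaller share than the 4.90% of all genes). By library it was 0.16 and -0.18 in WT, 0.33 and -0.19 in AAB and -0.16 and -0.35 in BBA, so the genotypes overlapped and the AAB libraries lay on opposite sides of 0. For 77 mitochondrial ribosomal proteins it was -0.21 and 0.03, with Mrps18b as the DEG (-0.98 ± 0.15, adjusted p = 0.0472). For 30 genes of cholesterol and fatty acid synthesis it was -0.28 and -0.01, with 8 lower genes with the block in BBA, against 4.90% of all genes. Idi1, an isomerase of the sterol pathway, was lower with the block in BBA than in WT and AAB, at 30.5 and 30.2 CPM in WT, 38.5 and 27.5 CPM in AAB and 14.4 and 13.1 CPM in BBA (-1.15 ± 0.18 from WT, adjusted p = 0.0037, 0.0587 without the block, and -1.26 ± 0.18 from AAB, adjusted p = 0.0178, 0.304 without the block). Fasn, the fatty acid synthase, passed with the block in BBA, at 318 and 304 CPM in WT, 194 and 251 CPM in AAB and 163 and 174 CPM in BBA (-0.89 ± 0.15, adjusted p = 0.0529 without and 0.00199 with it). Acat2, of sterol precursor synthesis, passed with the block in both deficient genotypes, -1.21 ± 0.17 in BBA (adjusted p = 0.0023, 0.0578 without the block) and -1.48 ± 0.18 in AAB (adjusted p = 0.00901, 0.233 without the block).

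**Figure D4:**
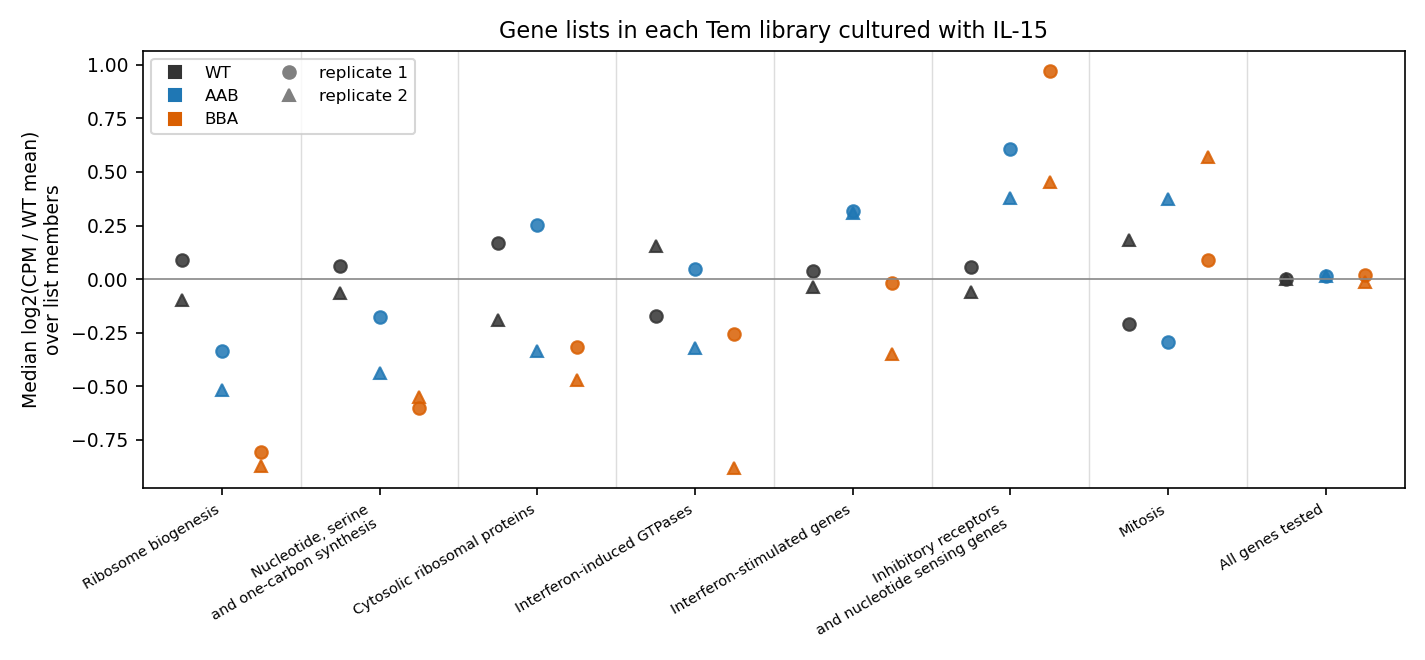
Median over list members of the log2 ratio of CPM to the WT mean in each Tem library with IL-15, for 7 lists and for all genes tested, coloured by genotype and shaped by replicate. Ribosome biogenesis steps down from WT to AAB to BBA in both replicates, while the mitosis list is higher in replicate 2 of every genotype.

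Cytotoxic genes moved in different directions by gene, and most of the list lay below 0 in BBA. The median was -0.24 in BBA, with 10 of 13 genes below 0, and 0.09 in AAB, with 6 below 0. Of 13 tested genes 1 was a lower DEG in BBA, against 1.18% of all genes. With the block 4 were lower and 1 higher (against 4.90% and 9.39% of all genes). The DEG was Gzma, which encodes granzyme A, at 33.1 and 38.7 CPM in WT, 13.7 and 16.7 CPM in AAB and 4.55 and 8.88 CPM in BBA (-2.42 ± 0.35, adjusted p = 0.042). Gzma passed with the block in AAB (-1.24 ± 0.22, adjusted p = 0.0382, 0.484 without the block) and between BBA and AAB (-1.23 ± 0.24, adjusted p = 0.0427, 0.54 without the block). Granzyme B, Gzmb, was at 38 and 33.9 CPM in WT, 14.6 and 8.61 CPM in AAB and 10.8 and 2.81 CPM in BBA, lower in every deficient library than in WT, and passed with the block in BBA (-2.38 ± 0.62, adjusted p = 0.126 without and 0.00223 with it). Granzyme M, Gzmm, was called in opposite directions in the deficient genotypes with the block, at 21 and 9.26 CPM in WT, 70.1 and 43.5 CPM in AAB and 7.59 and 6.43 CPM in BBA. It rose in AAB (1.96 ± 0.21, adjusted p = 0.00764), fell in BBA (-1.05 ± 0.24, adjusted p = 0.0167) and differed between them (-3.0 ± 0.24, adjusted p = 0.00147). None of these 3 Gzmm differences passed without the block, where the adjusted p was 0.355, 0.27 and 0.304. Granzyme K, Gzmk, was at 104 and 33.7 CPM in WT, 156 and 116 CPM in AAB and 378 and 143 CPM in BBA, and passed with the block as higher in BBA (1.95 ± 0.24, adjusted p = 0.00135, 0.208 without the block). Perforin, Prf1, passed with the block between BBA and AAB (-0.85 ± 0.11, adjusted p = 0.0133, 0.423 without the block), at 102 and 79.5 CPM in WT, 132 and 122 CPM in AAB and 82.9 and 59.4 CPM in BBA. In these bulk samples fewer cells of a type and less RNA per cell cannot be told apart.

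Secreted factors and NK-type receptors added few calls. Of all genes 1.18% were lower and 0.579% higher in BBA without the block, and 4.90% and 9.39% with it. No cytokine or chemokine of 14 tested was a DEG. With the block Tnf was lower in both deficient genotypes, at 41.4 and 26.9 CPM in WT, 17.7 and 11 CPM in AAB and 10.1 and 3.27 CPM in BBA (-2.43 ± 0.27 in BBA, adjusted p = 0.000903, 0.112 without the block, and -1.27 ± 0.25 in AAB, adjusted p = 0.0499, 0.728 without the block), and Lta and Osm were lower in BBA. Cxcl10 and Xcl1 were called higher with the block in BBA, but BBA replicate 1 carried most of it, with Cxcl10 at 42.9 and 6.90 CPM and Xcl1 at 37.7 and 7.01 CPM in the 2 libraries, and BBA replicate 1 was also the library with the most myeloid marker counts, whose part was not tested. Klrc1, which encodes the inhibitory receptor NKG2A, was the DEG of 8 tested NK receptor genes, at 39.1 and 33.2 CPM in WT, 19 and 18.9 CPM in AAB and 15.3 and 16.4 CPM in BBA (-1.19 ± 0.17 in BBA, adjusted p = 0.0413). Il2rb, the receptor chain that binds IL-15, was at 1127 and 807 CPM in WT, 784 and 839.8 CPM in AAB and 649.9 and 535 CPM in BBA and passed with the block in BBA (-0.71 ± 0.19, adjusted p = 0.137 without and 0.0113 with it). Il4ra, the IL-4 receptor chain, did likewise (-1.09 ± 0.18, adjusted p = 0.0507 without and 0.00167 with the block).

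Interferon-stimulated genes had medians on different sides of 0 in AAB and BBA. The median of 26 interferon-stimulated genes was 0.31 in AAB, -0.10 in BBA and -0.44 for BBA over AAB, where 6 genes were lower with the block, against 1.05% of all genes. By library the list stood at 0.04 and -0.04 in WT, 0.32 and 0.31 in AAB and -0.02 and -0.35 in BBA. Ly6c1, a surface protein of memory CD8+ cells, was the DEG in BBA, at 62.8 and 37 CPM in WT, 52.3 and 51.3 CPM in AAB and 8.21 and 14.1 CPM in BBA (-2.17 ± 0.35, adjusted p = 0.0497). AAB was 0.05 ± 0.33 from WT, and BBA was -2.22 ± 0.35 from AAB (adjusted p = 0.304, 0.0138 with the block). Its near-identical neighbour Ly6c2 had the same order, at 113 and 65.6 CPM in WT, 90.2 and 87.1 CPM in AAB and 16.2 and 34.1 CPM in BBA, and reads of this pair may be split between them by the counting. Oas3, an antiviral enzyme, and Rtp4 were lower in BBA than in AAB with the block (-0.97 ± 0.11, adjusted p = 0.00774, 0.52 without the block, and -1.37 ± 0.23, adjusted p = 0.0269, 0.304 without the block). The 16 interferon-induced GTPases, which act against intracellular pathogens, had a median of -0.55 in BBA and -0.13 in AAB, with no DEG and 6 lower genes with the block in BBA, against 4.90% of all genes. Gbp4 among them was at 336 and 413 CPM in WT, 289 and 219 CPM in AAB and 176 and 129.7 CPM in BBA (-1.29 ± 0.22 in BBA, adjusted p = 0.0541 without and 0.00181 with the block). Gbp11 had the widest gap, at 14.4 and 27.1 CPM in WT, 2.32 and 0.675 CPM in AAB and 0.0893 and 1.64 CPM in BBA (-4.61 ± 1.30 in BBA, adjusted p = 0.149 without and 0.00459 with the block, and -3.74 ± 1.23 in AAB, 0.0584 with it). The GTPase list spread widely between replicates, with -0.17 and 0.15 in WT, 0.05 and -0.32 in AAB and -0.26 and -0.88 in BBA.

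Inhibitory receptors and nucleotide sensing genes were the pathway list with the most higher DEG in BBA. Of 17 tested genes 5 were higher DEG and none was lower, against 0.579% of all genes, with a median of 0.57. In AAB the median was 0.55, with no DEG without the block and 4 higher genes with it, against 0.619% of all genes. Lag3 (GRCm38 chr6:124904361-124911705, minus strand), which binds MHC class II, was at 30.3 and 27.7 CPM in WT, 123 and 165 CPM in AAB and 217 and 109 CPM in BBA. Every deficient library was above WT, while AAB and BBA overlapped. Lag3 rose in BBA (2.49 ± 0.35, adjusted p = 0.0413), was 2.31 ± 0.35 in AAB (adjusted p = 0.245, 0.00901 with the block), and BBA over AAB was 0.18 ± 0.33 (adjusted p = 0.86). Tigit, a receptor for nectin-type ligands, was at 14.3 and 13.2 CPM in WT, 50.8 and 47.9 CPM in AAB and 92.1 and 45.1 CPM in BBA (2.32 ± 0.34 in BBA, adjusted p = 0.042, and 1.84 ± 0.23 in AAB, adjusted p = 0.0095 with the block and 0.295 without). Ctla4, which competes with CD28 for its ligands, was at 27.5 and 20.2 CPM in WT, 57.9 and 55.2 CPM in AAB and 101 and 61.5 CPM in BBA (1.77 ± 0.27 in BBA, adjusted p = 0.0454, and 1.26 ± 0.16 in AAB, adjusted p = 0.00973 with the block and 0.343 without). Cd200, the ligand of an inhibitory myeloid receptor, was at 9.37 and 8.05 CPM in WT, 26.4 and 25.8 CPM in AAB and 49.5 and 27.8 CPM in BBA and rose in BBA (2.15 ± 0.30, adjusted p = 0.0413). P2rx7, an ATP-gated channel, was at 8.75 and 12.2 CPM in WT, 15.9 and 18.1 CPM in AAB and 29.6 and 29.6 CPM in BBA and rose in BBA (1.5 ± 0.23, adjusted p = 0.0454), with no overlap between genotypes. For Lag3, Tigit, Ctla4 and Cd200 BBA replicate 1 was well above BBA replicate 2. Ctla4 is also a member of the CD4 and regulatory T cell marker list, which has 5 other members. Foxp3 was at 18.9 and 28.1 CPM in WT, 9.07 and 11.8 CPM in AAB and 6.34 and 8.53 CPM in BBA and lower in BBA with the block (adjusted p = 0.0023, 0.0784 without), with an effect of -1.65 ± 0.23 in that fit. Ikzf4 was at 29.3 and 25.4 CPM in WT, 17.8 and 22.4 CPM in AAB and 34.7 and 34.9 CPM in BBA, and Zbtb7b at 21.8 and 24.4 CPM in WT, 14.3 and 19.2 CPM in AAB and 20.4 and 13.7 CPM in BBA, and neither was called in either fit. Cd4 was at 4.33 and 3.79 CPM in WT, 6.54 and 4.39 CPM in AAB and 7.41 and 4.56 CPM in BBA and Cd40lg at 4.15 and 5.07 CPM in WT, 3.16 and 3.04 CPM in AAB and 3.30 and 4.79 CPM in BBA, and both were under the filter. The part of such cells in the levels of Ctla4 was not tested.

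Transcription factors of T cell differentiation added 4 higher DEG in BBA. Of 22 effector and memory factors 2 were higher DEG in BBA and none lower (against 0.579% and 1.18% of all genes), and with the block 8 were higher and 1 lower (against 9.39% and 4.90%; median 0.55 in BBA and 0.35 in AAB). Tox, known from exhausted T cells, was at 22 and 21.9 CPM in WT, 60.8 and 59.9 CPM in AAB and 103 and 57.7 CPM in BBA (1.88 ± 0.27 in BBA, adjusted p = 0.042, and 1.45 ± 0.20 in AAB, adjusted p = 0.0156 with the block and 0.304 without). Tox2, a relative of Tox, was about 1 CPM in WT and passed with the block in both deficient genotypes, at 0.884 and 1.13 CPM in WT, 8.54 and 9.79 CPM in AAB and 11.6 and 7.01 CPM in BBA (3.18 ± 0.51 in BBA, adjusted p = 0.00403, 0.0825 without the block, and 3.16 ± 0.51 in AAB, adjusted p = 0.0273, 0.341 without the block). Ikzf2, which encodes Helios, had both BBA libraries above all others, at 16 and 24.6 CPM in WT, 15.7 and 35.1 CPM in AAB and 59.3 and 69.7 CPM in BBA, and passed with the block against WT (1.71 ± 0.20, adjusted p = 0.00128, 0.11 without the block) and against AAB (1.44 ± 0.21, adjusted p = 0.017, 0.547 without the block). Maf, a factor of IL-10 expression, was at 23.2 and 20.9 CPM in WT, 38.2 and 34.1 CPM in AAB and 42.8 and 56.5 CPM in BBA (1.17 ± 0.18 in BBA, adjusted p = 0.0447). Of 15 naive and stem-like factors 2 were higher DEG, Myb and Bcl6, and none was lower. Myb, a regulator of stem-like CD8+ cells, was at 20.5 and 26.2 CPM in WT, 64.9 and 67.3 CPM in AAB and 86.9 and 126 CPM in BBA, without overlap between genotypes (2.19 ± 0.22 in BBA, adjusted p = 0.0225, and 1.52 ± 0.14 in AAB, adjusted p = 0.00411 with the block and 0.233 without). Id3, of the same list, passed with the block in both, and was highest in AAB, at 35.3 and 30.4 CPM in WT, 73.1 and 59.9 CPM in AAB and 58.7 and 51.5 CPM in BBA. Bcl6, a repressor that opposes STAT5 target programs in T cells, was at 8.22 and 11.1 CPM in WT, 15.3 and 20.9 CPM in AAB and 40.4 and 36.9 CPM in BBA. It rose in BBA (2.0 ± 0.25, adjusted p = 0.0324) and was higher than in AAB with the block (1.10 ± 0.24, adjusted p = 0.413 without and 0.036 with it).

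Bcl6 is also a gene with the STAT5 palindrome in its promoter. The 250 bases upstream of the inner RefSeq start (GRCm38.p6, chr16:23981284-23981533, minus strand, within an intron of the longer transcript) hold 3 copies, in capitals, at bases -168, -122 and -88 from that start. The 250 bases upstream of the outer start (chr16:23988853-23989102, minus strand) hold 1 copy, at bases -118 to -110, and are not shown. The window with more copies was picked, and is shown because Bcl6 rose in BBA, whereas Cish and Socs3 with the same motif fell.
Bcl6: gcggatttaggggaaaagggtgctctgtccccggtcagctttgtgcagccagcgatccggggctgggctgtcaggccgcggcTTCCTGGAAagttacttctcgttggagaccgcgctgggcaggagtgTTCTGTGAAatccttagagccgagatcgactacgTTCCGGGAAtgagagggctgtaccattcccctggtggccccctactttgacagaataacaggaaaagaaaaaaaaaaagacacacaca

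The share of promoters with the motif was counted in each set of genes. Windows from 250 bases before to 50 bases after each RefSeq start, searched for TTCNNNGAA (which reads the same on both strands), held it in 9.55% of 27025 genes and in 8.51% of the 7810 tested genes with a window. It was in 12 of the 91 lower DEG of BBA with a window (13.2%), among them Cish, Socs3, Shmt2 and Phb, and in 2 of the 41 higher DEG (4.88%), Bcl6 and Tsc22d1. With the block the shares were 13.1% of 383 lower and 9.17% of 687 higher genes. A match in the window is a description of the sequence, and binding was not measured in these libraries.

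Adhesion and homing genes included a single DEG in BBA, a higher one, against 0.579% of all genes. Itgb1, the integrin β1 chain, was at 946 and 735 CPM in WT, 1250.2 and 1332 CPM in AAB and 2215 and 1683 CPM in BBA and rose in BBA (1.21 ± 0.19, adjusted p = 0.0447), 1 of 27 genes of the list. Its partner Itga1, which pairs with it to bind collagen, was at 25.9 and 37.1 CPM in WT, 7.59 and 8.78 CPM in AAB and 14 and 14.6 CPM in BBA and passed with the block as lower in AAB (-1.93 ± 0.22, adjusted p = 0.00764, 0.197 without the block) and in BBA (-1.12 ± 0.20, adjusted p = 0.00648, 0.0853 without the block). Cxcr5, a receptor for homing to B cell follicles, was higher with the block in both, at 28 and 29.6 CPM in WT, 90.5 and 64.5 CPM in AAB and 96.1 and 56.5 CPM in BBA (1.36 ± 0.18 in BBA, adjusted p = 0.00184, 0.0784 without the block, and 1.39 ± 0.18 in AAB, adjusted p = 0.0103, 0.327 without the block). Itga4, an integrin chain that also pairs with β1, was higher in BBA than in WT and AAB with the block, at 696 and 659 CPM in WT, 462 and 664 CPM in AAB and 1614 and 1007 CPM in BBA (0.94 ± 0.23, adjusted p = 0.0214, 0.151 without the block, and 1.20 ± 0.23, adjusted p = 0.0398, 0.413 without the block). Itgae, which encodes CD103, passed with the block in BBA, at 294 and 265 CPM in WT, 254 and 409 CPM in AAB and 474 and 567 CPM in BBA (0.88 ± 0.17, adjusted p = 0.009, 0.134 without the block).

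Among the DEG of BBA without the block, genes outside the lists had the largest fold changes. Drc1, a subunit of the dynein regulatory complex of cilia, was at 42.1 and 22.5 CPM in WT, 32.1 and 24 CPM in AAB and 0.446 and 1.99 CPM in BBA. It was the lowest DEG of BBA (-4.78 ± 0.68, adjusted p = 0.042), and AAB was -0.20 ± 0.54 from WT, with BBA -4.58 ± 0.67 from AAB (adjusted p = 0.301, 0.00536 with the block). Rab6b, a small GTPase of Golgi transport, was its counterpart among the genes that rose, at 1.15 and 3.14 CPM in WT, 0.949 and 2.03 CPM in AAB and 37.8 and 36.2 CPM in BBA (4.09 ± 0.58 in BBA, adjusted p = 0.042, and 4.74 ± 0.42 over AAB, adjusted p = 0.00266 with the block and 0.266 without). For both genes the AAB libraries lay within or next to the WT range and both BBA libraries lay apart. Igfbp4 (GRCm38 chr11:99041244-99054392, plus strand), a secreted binding protein of insulin-like growth factors, was at 75.3 and 121 CPM in WT, 19.6 and 34.6 CPM in AAB and 5.63 and 9.23 CPM in BBA. It was lower in AAB than in WT (-1.86 ± 0.38, adjusted p = 0.338, 0.000625 with the block) and lower again in BBA (-3.73 ± 0.42 from WT, adjusted p = 0.0271, and -1.85 ± 0.15 from AAB, adjusted p = 0.00147 with the block and 0.413 without). Tbc1d16, a Rab GTPase-activating protein, and Ppic, a peptidyl-prolyl isomerase, also fell in BBA, by 2.54 and 2.30 on the log2 scale, with AAB between WT and BBA.

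Nrp1 (GRCm38 chr8:128358604-128503363, plus strand), the semaphorin and VEGF co-receptor neuropilin 1, had the mirror image of Igfbp4, at 37.5 and 40.5 CPM in WT, 77.3 and 94.7 CPM in AAB and 291 and 242 CPM in BBA. It rose in BBA (2.77 ± 0.16, adjusted p = 0.0168) and, with the block, in AAB (1.14 ± 0.15, adjusted p = 0.202 without and 0.0095 with it), and BBA was 1.63 ± 0.15 over AAB (adjusted p = 0.116, 0.00223 with the block). Car2, which encodes carbonic anhydrase 2, followed the same order, at 17 and 17.2 CPM in WT, 36.4 and 60.6 CPM in AAB and 136 and 109 CPM in BBA (2.84 ± 0.27 in BBA, adjusted p = 0.0192). Rgs16, a brake on G protein signalling, was at 6.72 and 7.33 CPM in WT, 23.7 and 31.1 CPM in AAB and 56.9 and 38.2 CPM in BBA (2.76 ± 0.26 in BBA, adjusted p = 0.0198, and 1.95 ± 0.25 in AAB, adjusted p = 0.00973 with the block and 0.197 without). Gpm6b, a membrane proteolipid, rose in BBA (2.46 ± 0.39, adjusted p = 0.0495) but overlapped AAB, at 10.7 and 7.09 CPM in WT, 36.3 and 36.6 CPM in AAB and 65.7 and 31.7 CPM in BBA. Kcnf1, a potassium channel subunit, rose from 2.12 and 3.22 CPM in WT to 33.8 and 16.6 CPM in BBA (3.23 ± 0.50, adjusted p = 0.0457).

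Other groups showed few calls. None of 21 genes of the T cell receptor complex, coreceptors and proximal kinases and none of 17 MHC class I and antigen processing genes was a DEG in BBA (medians 0.03 and -0.09). Cd3e was at 494 and 454 CPM in WT, 479 and 525 CPM in AAB and 523 and 485 CPM in BBA. Cd28, the costimulatory receptor, was the member of the first list to pass with the block, at 254 and 230.0 CPM in WT, 379 and 306 CPM in AAB and 506 and 322 CPM in BBA (0.74 ± 0.13 in BBA, adjusted p = 0.00591, 0.175 without the block). Of 16 immediate early genes and dual-specificity phosphatases 1 was a DEG, against 1.18% lower among all genes. This was Dusp5, a phosphatase of ERK, which fell (-1.16 ± 0.19, adjusted p = 0.0497). With the block Egr1, Egr2, Egr3, Dusp4 and Dusp6 were higher in BBA, in a fit that called 9.39% of all genes higher. No DEG was found among 15 TNF superfamily genes, and Tnfrsf18, which encodes GITR, passed with the block as lower in BBA and AAB (-1.15 ± 0.11, adjusted p = 0.000564, 0.0732 without the block, and -0.67 ± 0.11, adjusted p = 0.0288, 0.564 without the block). Of 39 genes for DNA replication none was a DEG (median -0.13), and of 27 mitosis genes none was, with a median of 0.50 in BBA and 6 genes higher with the block, against 9.39% of all genes. The mitosis list by library was -0.21 and 0.18 in WT, -0.29 and 0.38 in AAB and 0.09 and 0.57 in BBA, higher in replicate 2 of each genotype, the same libraries that had the most counts on silent receptor genes, and their part in the 6 calls was not tested.

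The DEG of BBA were compared with other libraries of the same genotypes, each condition fitted by itself. The labels do not tell whether the same mice gave them. In Tcm with IL-15, 110 of the 120 lower genes were called lower (91.7% of the Tem list and 9.36% of the 1175 lower genes of Tcm), against 11.8% of all genes tested there. Of the 59 higher genes 55 were tested in Tcm and 50 were called higher (84.7% of the Tem list and 4.31% of the 1159 higher genes of Tcm), against 11.7%. None was called in the opposite direction. The medians of the 2 sets were -1.13 and 1.39 in Tem and -1.38 and 1.37 in Tcm. Lower genes of Tem not called in Tcm were Aim1, Arl4c, Iqgap2, Itgb3, Lyst, Pik3cd, Pik3r5, Socs3, Tlr1 and Zfp652. Higher genes of Tem without a call in Tcm were Ankrd46, Gpm6b, Hnrnpll, Itgb1, Kcnf1, Maf, Ptger2, Rgs16 and Spock2, of which 4 were not tested there.

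In Tem of the same genotypes labelled as without cytokine, few of these genes were called. Their treatment label gives no culture time, and the study's methods set cells processed straight after the sort beside cells cultured with cytokine, although the growth protocol shared by all samples names culture. Culture and IL-15 therefore cannot be told apart between these conditions. Of the 120 lower genes 7 were lower there (5.83% of them and 58.3% of the 12 genes called lower there, against 0.118% of all genes), 112 lay below 0 and the median was -0.33. Of the 59 higher genes 2 were higher (3.39% of them and 22.2% of the 9 called higher there, against 0.0885% of all genes), 58 lay above 0 and the median was 0.77. Ribosome biogenesis had a median of -0.19 without cytokine and of -1.18 in Tcm with IL-15. The inhibitory receptor list had a median of 0.55 without cytokine and of 0.57 with IL-15. For the interferon-induced GTPases these were 0.20 and -0.55. For DNA replication the Tcm median was -1.06, with 30 of 39 genes lower, where Tem had -0.13 and none, and this difference of lists was not tested.

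**Figure D5:**
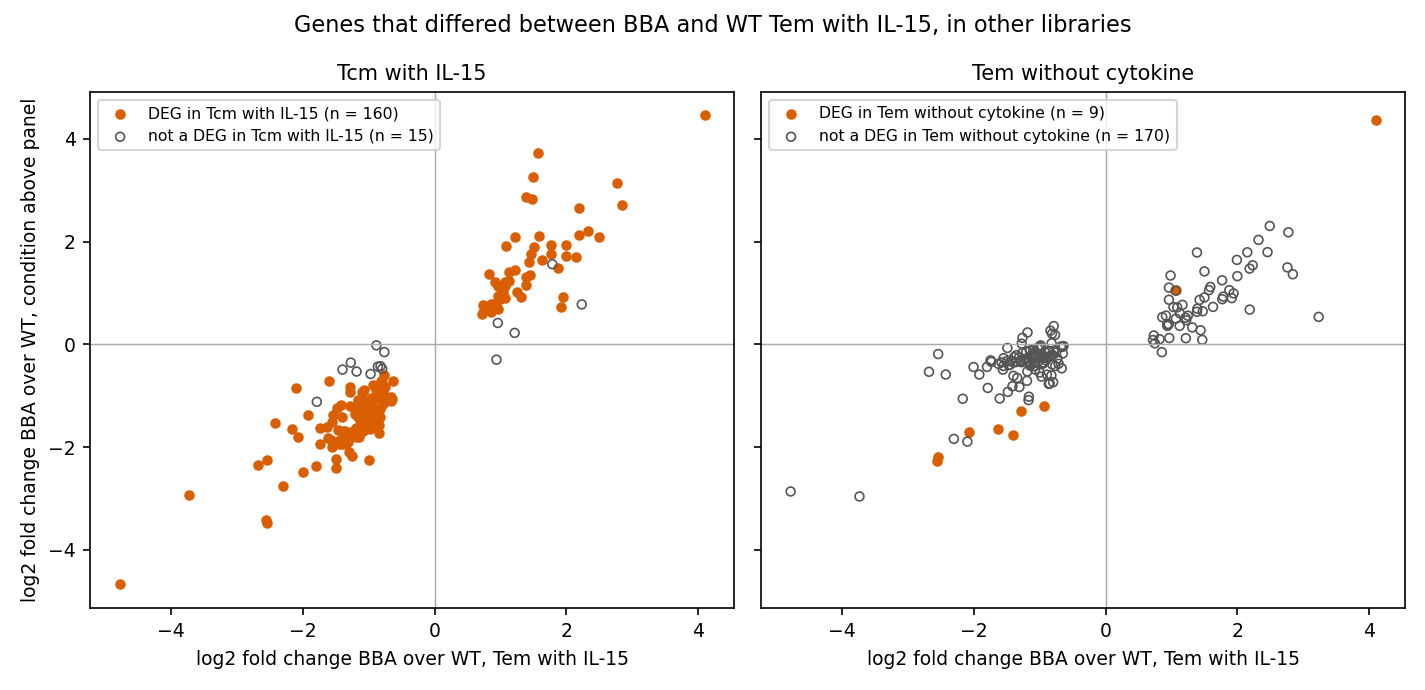
Log2 fold change BBA over WT of the 179 DEG in Tem with IL-15 (x axis) against the same contrast in Tcm with IL-15 (left) and in Tem without cytokine (right), 1 point per gene, filled where the gene was also a DEG in that condition. Of 175 genes tested in Tcm 160 are filled, and of 179 genes tested in Tem without cytokine 9 are.

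The difference of effects was tested gene by gene in fits of 12 libraries. Between Tem with IL-15 and Tem without cytokine the effect of BBA differed for 1 of 10485 genes (0.00954%), and for 149 (1.42%) with the block, with 811 genes at an unadjusted p under 0.05. That gene was Cdk6, whose difference was -2.35 ± 0.23 (SE, log2, adjusted p = 0.0221). On the scale of the 48 libraries it stood without cytokine at 19.9 and 17.7 CPM in WT and 14.7 and 17.6 CPM in BBA, and with IL-15 at 73.8 and 64.7 CPM and 12.6 and 10.6 CPM. Both WT libraries with IL-15 were above those without it, and both BBA libraries with IL-15 were below those without it. Between Tem and Tcm with IL-15 it was again 1 gene of 10448 (0.00957%), and 118 (1.13%) with the block, with 1030 at an unadjusted p under 0.05. This was Odc1, the rate-limiting enzyme of polyamine synthesis, with a difference of 1.48 ± 0.14 (SE, log2, adjusted p = 0.0181). In Tcm Odc1 was at 128 and 112 CPM in WT and 39.7 and 39.5 CPM in BBA, and in Tem at 69.7 and 64.7 CPM and 62 and 66.8 CPM. DESeq2 called 104 genes in each of these 2 tests. Neither Cdk6 nor Odc1 passed when any 1 of the 6 Tem libraries with IL-15 was left out.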

How the data were processed

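Poly(A) RNA of each library was sequenced as single-end reads of 50 bases. The deposited values were raw counts of reads per gene, 1 column per library, made by the authors. The submitters' processing notes name TopHat2, Cufflinks, HTSeq and mm9, whereas the study's methods give mm10. The annotation and the strand setting are not given in the sources used here. Reads shared by paralogs or overlapping genes may be split or dropped by such counting.

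Low counts were removed with a Jaccard filter (re-implemented from HTSFilter, 100 thresholds from 1 to 200, loess span 0.3), which chose 105 normalized counts in at least 1 library. TMM factors and quasi-likelihood tests came from edgeR 4.0.16 with limma 3.58.1 in R 4.3.3, over the 6 libraries in a single fit, and p-values were adjusted by the Benjamini-Hochberg method over all genes tested. SE is the absolute log2 fold change divided by the square root of F. DESeq2 1.42.0, other filters and scalings, left-out libraries and a replicate block were alternatives. The labels give the same replicate numbers in each genotype, and deviations of same-numbered libraries correlated at 0.79 (WT with AAB), 0.75 (WT with BBA) and 0.68 (AAB with BBA) over 10183 genes, so the numbers were treated as pairs. Replicates of a genotype differed by more than sampling noise, and no library was counted as a duplicate. The fits were also run on simulated data with known changes. Those data had the spread of the fit with the block, so they cannot decide between the fits with and without it. With 2 libraries a group, the precision rests on the spread shared across genes, and intervals cover these libraries only.

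Named genes were Stat5a, Stat5b, the sorted genes, per comparison and direction up to 8 DEG with the largest changes (a mean of at least 50 normalized counts, no overlap between the groups), per pathway list up to 6 members called with or without the block or otherwise the 2 with the lowest p, and per interaction up to 5 genes a direction. Genes counted in sets of 5 or fewer, in cross-condition lists or among markers were named after their values were seen. The members and lists were chosen with earlier results of these data known. Gene positions came from GENCODE on GRCm38 and promoters from RefSeq on GRCm38.p6. Some genes are not reported here.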

Additional observations from a re-analysis of the deposited data

Results flagged for a closer look

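The effect of BBA on Cdk6 differed between conditions in a test of the difference itself. BBA over WT in Tem with IL-15 minus BBA over WT in Tem without cytokine was -2.35 ± 0.23 on the log2 scale (SE, edgeR adjusted p = 0.0221), and BBA lay below WT in both conditions on average. Culture and IL-15 cannot be told apart between these conditions.

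The effect of BBA on Odc1 differed between cell types in the same kind of test. The value in Tem with IL-15 minus that in Tcm with IL-15 was 1.48 ± 0.14 (SE, edgeR adjusted p = 0.0181), with BBA below WT in both Tcm libraries and within or near the WT range in Tem.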

How the results depend on the processing

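The counts of DEG depended on the processing, and depth of 5926139 to 12740227 counts with 2 libraries a genotype limits calls on low genes. For BBA against WT the count of 179 became 1455 with the replicate block, 565 with no filter on low counts, 21 with filterByExpr, 805 with DESeq2 and 861 in a fit over 48 CD8+ libraries. It stayed near the main value with DESeq2 size factors (173) and the newer edgeR quasi-likelihood form (245). For AAB against WT the count of 2 became 129 with the replicate block, 51 with no filter, 1 with filterByExpr, 199 with DESeq2 and 14 in the 48-library fit. For BBA against AAB the count of 1 became 226 with the block, 107 with no filter, 168 with DESeq2 and 39 in the 48-library fit. Other alternatives were chosen after seeing the data. A fit over 45 libraries without all 3 of replicate 1, or of replicate 2, gave 293 and 468 in BBA, 1 and 1 in AAB and 44 and 13 between them. TMM before the filter gave 59 in BBA and 2 between BBA and AAB, and with the block 1545, 159 and 284. Genes of at least 20 CPM gave 275 in BBA and 2 between BBA and AAB, and with the block 866, 120 and 204. The interaction count of 1 between Tem with IL-15 and without cytokine became 149 with the block within each condition, 104 with DESeq2 and 20 in the 48-library fit, and that between Tem and Tcm became 118, 104 and 15. Leaving out each library in turn gave 0 to 35 for BBA, 1 to 7 for AAB, 0 to 0 between them and 0 to 1 for each interaction, where a lone library was assumed to vary like the others. Of 2958 values for 159 named genes over 19 alternatives, 2004 kept side and direction, 486 lost the call, 463 gained it and 5 turned. Those were Tnfrsf10b and Tyms without BBA replicate 2 (-0.65 and -0.19, with up to 2.73 and 1.65 without WT replicate 2), Odc1 without WT replicate 1 (0.0011, against -0.073 without BBA replicate 2) and in the 45-library fit without replicate 1 (0.0436), and Cd3e with filterByExpr (-0.018), none of them a DEG in BBA without the block. The cause of these changes was not tested. With the block, all 120 lower and 59 higher DEG of BBA were called again. With filterByExpr 16 and 5 of them were, with TMM before the filter 32 and 17, and with no filter 104 and 46.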
